A study of Rattus norvegicus with 24 samples.

Results

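Solute carriers are membrane proteins that move amino acids, sugars, metals, ions, vitamins and other small molecules across the plasma membrane and the membranes of organelles. In liver, carriers on the blood-facing side of hepatocytes take up glucose, amino acids, sulfate, organic ions and metals, and other family members load the Golgi, the endoplasmic reticulum and lysosomes. Several amino acid carriers are known targets of the transcription factor ATF4, which acts when amino acids are scarce or the endoplasmic reticulum is stressed, and zinc carriers answer to metal supply and to inflammation. The 87 genes described here were chosen by symbol and by level. Their symbols begin with Slc, a family number, the letter a and a member number. Mitochondrial carriers of family 25 were left out, as were 10 named carriers (Slc10a1, Slc10a2, Slc22a5, Slc22a7, Slc22a8, Slc27a5, Slc47a1, Slc3a2, Slc7a11 and Slc40a1). Of 217 such genes, 87 had a probe set averaging at least 6 log2 units over the 12 vehicle arrays, and 130 lay below. The whole table named 13439 genes. The choice therefore used the vehicle level, and levels are given as a description without a test.

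A working name for the set, other plasma membrane solute carriers, fits only part of it. The members include 8 carriers known mainly from the Golgi, the endoplasmic reticulum, lysosomes or vesicles, such as Slc37a4, the glucose-6-phosphate carrier of the endoplasmic reticulum. Among the 18 metal carriers, Slc30a5 and Slc39a7 are known from the Golgi and the endoplasmic reticulum. A further member, Slc4a1ap, is an adaptor protein named after a carrier and is no carrier itself. The genes are called solute carriers by symbol below.

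Liver RNA was measured in male Sprague Dawley rats, an outbred stock, aged 8 weeks. The 4 groups of 6 rats received 1 dose into the stomach, either alpha-naphthylisothiocyanate (ANIT) at 50 mg/kg in corn oil or corn oil alone, and were killed 24 h or 120 h later. In rodents ANIT injures the cells lining bile ducts and nearby hepatocytes, and the labels place peak injury at 24 h and repair at 120 h. All rats, controls included, were fasted for about 18 h and given BrdU at 100 mg/kg about 2 h before necropsy, so every level is that of a fasted liver. Each rat gave 1 one-colour array, and the number of arrays limits the precision.

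Values are log2 expression values per probe set, and a level of one gene cannot be set against that of another because probe sets differ in brightness. A change is the difference between group means on this log2 scale, so 1 unit is a 2-fold difference, and its standard error (SE) comes from a limma model of all 24 arrays. A gene was called where the Benjamini-Hochberg adjusted p over all 13439 genes was under 0.05. In whole liver, fewer cells of a type and less RNA per cell cannot be told apart. The 8 hepatocyte markers averaged between 11.4 and 11.8 on every array, and albumin was at 13.3 ± 0.04 (SD, n = 6) in the 24 h vehicle group. The SD of all values on an array ran from 1.84 to 2.09. The 6 arrays of lowest SD were replicates 3, 4 and 5 of the vehicle group at 24 h and replicates 4, 5 and 6 of the ANIT group at 120 h, and the calls that ended without them are named. The log2 ratio of the 3' to the 5' beta-actin control probe sets, a sign of RNA quality, lay between 2.98 and 3.18 with ANIT at 24 h and between 2.77 and 2.91 with vehicle, without overlap. The part of array spread and RNA quality in the results below was not tested beyond alternative fits. These leave those arrays out, rescale the arrays, or hold the array SD, the level of spiked hybridisation controls or that ratio as a covariate. At 24 h the fit with that ratio cannot tell RNA quality from ANIT, because the groups do not overlap in it.

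In vehicle livers the highest mean levels within each role were 12.17 for Slc27a2, an enzyme that activates very long chain fatty acids, 11.68 for Slc34a1, known as a phosphate carrier of kidney, and 11.32 for Slc38a4, an amino acid carrier of hepatocytes. Slc39a14, which takes zinc, iron and manganese into hepatocytes, was at 11.18, Slc19a2, a thiamine carrier, at 10.90, and Slc2a2, the main glucose carrier of hepatocytes, at 10.85. Slc16a1, a lactate carrier, was at 10.79. Slc37a4 and Slc17a2, of the phosphate and urate carrier family, were at 10.19 and 10.02. For Slc34a1 the other probe sets of the gene averaged 5.07 and 5.24, so its level rests on 1 of 3 probe sets. Just inside the threshold of 6 stood Slc39a3 (6.01), Slc52a2 (6.03), Slc16a13 (6.07) and Slc7a7 (6.10), and just outside it Slc3a1 (5.97), Slc39a10 (5.96), Slc22a2 (5.93) and Slc2a8 (5.92). Of the widely known carriers, Slc7a2 (5.41), Slc7a5 (5.06), Slc13a5 (5.47), Slc29a1 (5.92) and Slc30a1 (3.48) lay below the threshold.

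The promoters of the amino acid and zinc carriers that rose most at 24 h are shown because more members of both roles were called higher than lower there. RefSeq promoters of the GRCr8 assembly, from 250 bases before to 50 bases after each start, were matched by Entrez gene identifier for 72 of the 87 genes. In the promoters of Slc1a4 (chr14:98761513-98761812, minus strand) and Slc7a1 (chr12:11664238-11664537, plus strand), capitals mark the letters of the amino acid response element TTNCATCA, read on either strand.
Slc1a4: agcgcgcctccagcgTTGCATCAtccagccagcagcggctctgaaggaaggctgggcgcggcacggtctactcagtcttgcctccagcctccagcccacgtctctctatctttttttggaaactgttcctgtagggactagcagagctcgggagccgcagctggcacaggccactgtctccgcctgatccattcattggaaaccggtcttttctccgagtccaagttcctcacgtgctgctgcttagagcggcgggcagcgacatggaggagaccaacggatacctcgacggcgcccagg
Slc7a1: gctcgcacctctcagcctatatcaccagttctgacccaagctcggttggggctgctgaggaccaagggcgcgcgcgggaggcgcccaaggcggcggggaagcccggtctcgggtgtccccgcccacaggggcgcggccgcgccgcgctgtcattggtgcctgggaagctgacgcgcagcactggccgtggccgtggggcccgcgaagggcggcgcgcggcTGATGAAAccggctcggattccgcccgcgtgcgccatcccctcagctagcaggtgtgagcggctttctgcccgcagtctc
The match began 235 bases before the start in Slc1a4 and 30 bases before it, on the opposite strand, in Slc7a1.

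In the promoters of the zinc carriers Slc30a5 (chr2:33709849-33710148, minus strand) and Slc39a7 (chr20:4824809-4825108, plus strand), capitals mark the core of the metal response element, TGCACNC or TGCGCNC on either strand, with overlapping matches joined.
Slc30a5: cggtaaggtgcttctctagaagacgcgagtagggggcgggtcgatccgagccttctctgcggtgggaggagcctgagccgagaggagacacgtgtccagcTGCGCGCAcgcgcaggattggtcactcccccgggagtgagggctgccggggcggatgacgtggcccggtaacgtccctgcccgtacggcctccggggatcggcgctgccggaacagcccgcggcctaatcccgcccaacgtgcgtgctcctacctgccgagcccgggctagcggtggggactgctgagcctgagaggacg
Slc39a7: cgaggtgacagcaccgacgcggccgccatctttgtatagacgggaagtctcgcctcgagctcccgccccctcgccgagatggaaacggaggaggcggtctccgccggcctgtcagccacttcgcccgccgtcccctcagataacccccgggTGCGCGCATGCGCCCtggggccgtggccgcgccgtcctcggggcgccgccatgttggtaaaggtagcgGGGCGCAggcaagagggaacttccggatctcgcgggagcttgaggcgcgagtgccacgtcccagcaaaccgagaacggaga
Of 33469 rat promoters of this length, 3.98% held the amino acid response element and 24.23% the metal core. Among matched members called higher at 24 h, 2 of 13 held the first and 8 of 13 the second. Among those called lower, the counts were 0 of 12 and 2 of 12, and among those not called 1 of 47 and 14 of 47. The 8 higher members with the metal core were not all metal carriers. Slc30a5, Slc39a1 and Slc39a7 were, and Slc26a8, Slc2a1, Slc43a1, Slc44a1 and Slc4a1ap were not. The antioxidant response element core TGACNNNGC was found in 12.06% of all promoters and in 5 of 13, 3 of 12 and 10 of 47 members. The sterol regulatory element TCACNCCAC was found in 1.117% of all promoters and in 1 member, Slc46a1. Members were counted on 1 promoter per gene, the first listed, while the shares over all promoters count promoters and not genes. Base composition was not matched in these shares, and a match is a run of letters, not a bound site.

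At 24 h, more carriers of amino acids and of metals were called higher with ANIT than lower, 6 against 1 of 14 and 8 against 2 of 18. No member among the carriers of carboxylates and sulfate, of organic ions and urate or of vitamins was called higher, and 7 of these 23 were called lower. These directions were the same under each of the other settings in the plot of calls by setting, with 3 to 7 amino acid and 4 to 9 metal carriers called higher. None of the 8 members counted under organelles was called in either direction. Below the level of 6, the citrate carrier Slc13a5 was called higher, with a change of 1.48 (adjusted p = 9.99e-05). Of the 87 members, 33 were called, 20 higher and 13 lower, which is 37.9% of them. Of all genes 18.2% were called, with 12.9% higher and 5.31% lower. Genes are called more often where they are bright: of the 7079 genes with a vehicle level of at least 6, 28.7% were called, 20.7% higher and 8.01% lower. The members' share called higher, 22.99%, was near that background, and their share called lower was 14.94%. The median change of the members was 0.07, against 0.005 over all genes and 0.13 over the bright ones. In 8 members every ANIT array lay above every vehicle array and in 6 every one lay below, 16.1% of members against 7.87% of all genes. For groups without overlap the share among the bright genes was not computed. By the brightest probe set of each gene 4 members changed at least 2-fold, Slc7a1 and Slc1a4 upwards and Slc13a4 and Slc17a2 downwards. By the mean of a gene's probe sets Slc7a1 changed by 0.82 and Slc41a2, a magnesium carrier, by 1.16.

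**Figure D1:**
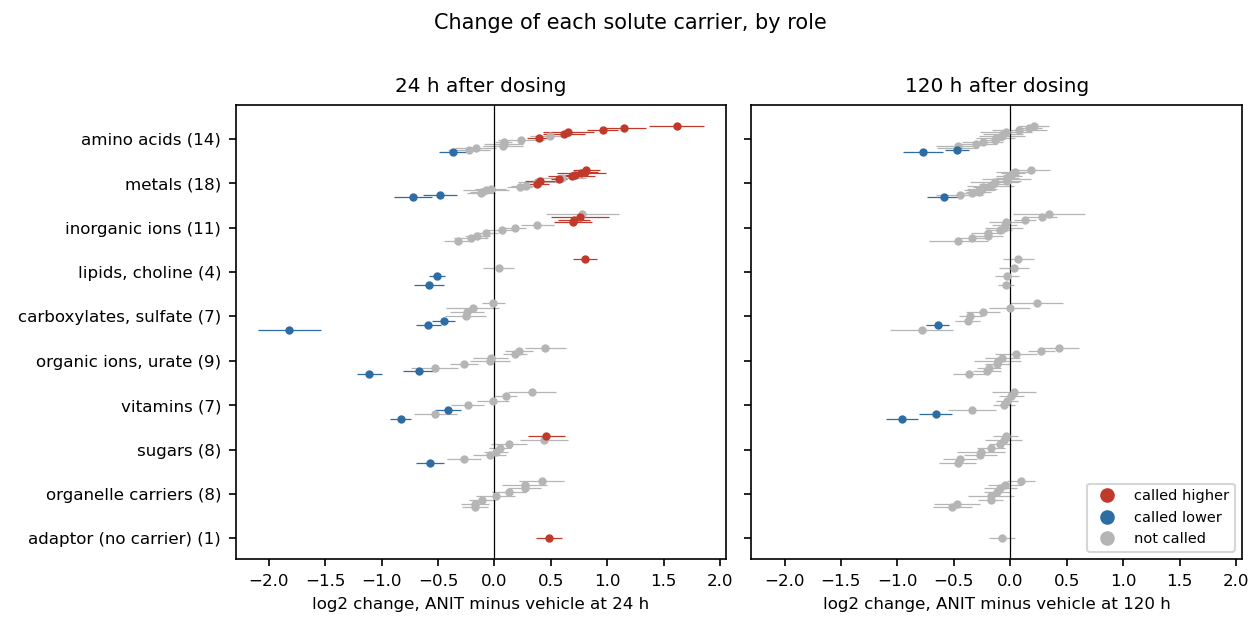
Log2 change (ANIT minus vehicle, horizontal axis) of each of the 87 members at 24 h and at 120 h, grouped by role with the number of members in brackets. Points are changes and bars their standard errors, red for called higher, blue for called lower and grey for not called. At 24 h the red points lie mostly among amino acid, metal and ion carriers, and at 120 h the 6 coloured points are all lower.

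The balance of rises and falls moved with the scaling, as the plot of calls under each setting shows. With the level of 9 spiked hybridisation controls as a covariate, 13 members were called higher and 23 lower. Quantile normalization gave 18 and 22, the array SD as a covariate 16 and 24, the beta-actin ratio as a covariate 8 and 10, and a fit without the 6 arrays of lowest SD 9 and 13. Of the 33 calls, 16 held under every alternative setting and with every array left out in turn: Slc13a4, Slc16a7, Slc17a2, Slc19a2, Slc1a4, Slc22a23, Slc26a1, Slc27a1, Slc27a2, Slc30a5, Slc39a14, Slc39a7, Slc41a2, Slc44a1, Slc7a1 and Slc7a7. Without the 6 arrays of lowest SD, 12 calls ended, with adjusted p between 0.0940 and 0.580, and 11 of these 12 were rises. With the beta-actin ratio as a covariate 17 of the 33 held, and that ratio alone ended the calls of Slc20a2, Slc2a5 and Slc30a3. In that fit the calls over all genes fell from 2452 to 908. The ratio did not overlap between the 24 h groups, so calls that ended with it cannot tell RNA quality from ANIT.

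**Figure D2:**
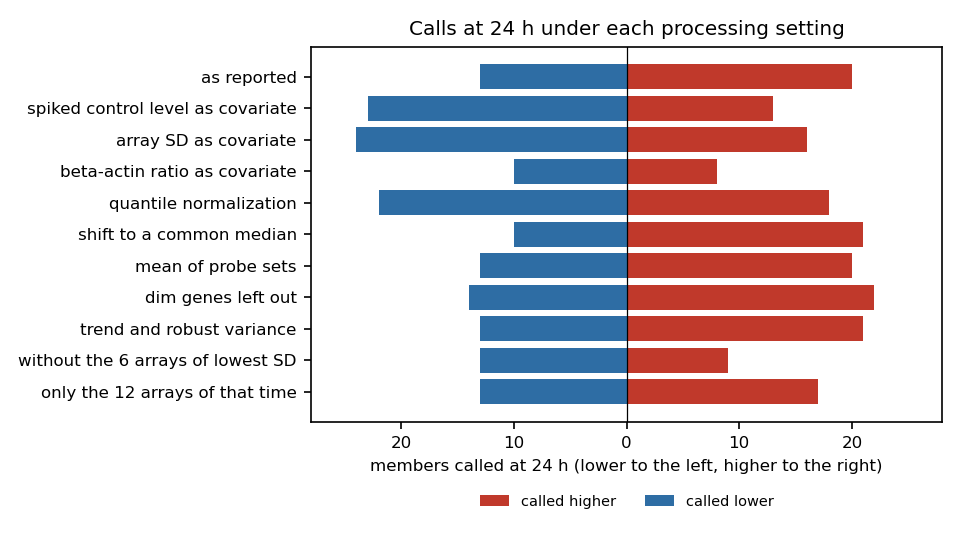
Number of members called lower (blue, to the left) and higher (red, to the right) at 24 h as reported and under 10 alternative settings. As reported 13 were lower and 20 higher, and with the spiked control level as a covariate 23 were lower and 13 higher.

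Among the 14 amino acid carriers, 6 were called higher, 1 was called lower and 7 were not called, with a median change of 0.31. Slc7a1, also known as CAT1, carries arginine and lysine across the plasma membrane. Slc7a1 had lowest, median and highest levels of 6.27, 7.34 and 7.51 on the vehicle arrays and 8.14, 8.63 and 9.78 on the ANIT arrays. Every ANIT array exceeded every vehicle array, and the change was 1.61 ± 0.24 (SE, adjusted p = 2.66e-05), a 3.06-fold rise. The vehicle array of replicate 1 stood far below the other 5, at 6.27 against 7.24 for the next. The 2 dimmer probe sets of Slc7a1, with vehicle levels of 4.32 and 3.55, gave changes of 0.67 and 0.18. Slc1a4, also known as ASCT1, exchanges alanine, serine and cysteine. The lowest, median and highest Slc1a4 levels were 7.54, 7.94 and 8.28 with vehicle and 8.44, 9.11 and 9.64 with ANIT. The groups did not overlap, and Slc1a4 rose by 1.15 ± 0.19 (SE, adjusted p = 8.86e-05), or 2.22-fold. Slc7a7 pairs with Slc3a2 to exchange cationic for neutral amino acids. Slc7a7 levels with vehicle were 5.86, 6.08 and 6.38 (lowest, median, highest), against 6.82, 6.997 and 7.50 with ANIT. All 6 ANIT arrays were above all vehicle arrays, with a change of 0.96 ± 0.14 (SE, adjusted p = 1.13e-05).

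A further 3 amino acid carriers rose less, with overlapping groups. Slc38a3, a glutamine carrier of hepatocytes, had a change of 0.39 ± 0.11 (SE, adjusted p = 0.00922). Its levels were 8.94, 9.10 and 9.47 with vehicle and 9.34, 9.57 and 9.72 with ANIT (lowest, median, highest). Slc38a10, of the same sodium-coupled family, rose by 0.62 ± 0.18 (SE, adjusted p = 0.0192), and Slc43a1, a carrier of branched-chain amino acids, by 0.65 ± 0.23 (SE, adjusted p = 0.0462). Slc43a2, the relative of Slc43a1, fell by 0.37 on the log2 scale (adjusted p = 0.0254). Slc38a2, a further sodium-coupled carrier known to respond to amino acid shortage, had a change of 0.49 ± 0.18 (SE, adjusted p = 0.0544) and was not called. Slc38a4 had a change of 0.08 ± 0.08 (SE, adjusted p = 0.484) and Slc1a2, a glutamate carrier of hepatocytes near the central vein, one of -0.23 ± 0.18 (SE, adjusted p = 0.416), and neither was called. Leaving out 1 array ended the calls of Slc43a1 (11 of 24 arrays, adjusted p up to 0.142), Slc38a10 (replicate 4 of the vehicle or 6 of the ANIT group, up to 0.0658) and Slc43a2 (replicate 2 of the vehicle or 6 of the ANIT group, up to 0.0850). A shift of each array to a common median ended that of Slc43a2 as well, at 0.136. The calls of Slc38a3, Slc38a10 and Slc43a1 also ended without the 6 arrays of lowest SD, with changes of 0.22, 0.36 and 0.40 at adjusted p of 0.273, 0.163 and 0.387. The beta-actin covariate ended these 3 calls too.

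Genes of the amino acid response outside the family were listed beside them. Of 9 measured, 5 were called higher at 24 h and none lower, against 12.9% and 5.31% of all genes. Asns, asparagine synthetase, changed by 2.60 ± 0.23 (SE, adjusted p = 1.61e-08), and Atf4 itself by 1.03 ± 0.11 (SE, adjusted p = 1.66e-07). Atf3 changed by 2.00 ± 0.31 (SE, adjusted p = 4.06e-05), Ddit4 by 1.12 ± 0.16 (SE, adjusted p = 1.74e-05) and Trib3 by 0.74 ± 0.26 (SE, adjusted p = 0.0495), which are known ATF4 targets. Ddit3, Chac1, Sesn2 and Cebpb were not called, with changes between -0.16 and 0.43. The amino acid carriers left out of the set moved likewise: Slc3a2, the partner of Slc7a7, changed by 1.05 ± 0.12 (SE, adjusted p = 4.72e-07) and Slc7a11, the cystine carrier, by 1.08 ± 0.26 (SE, adjusted p = 0.004). These genes share the arrays of the members and are no separate evidence on them.

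**Figure D3:**
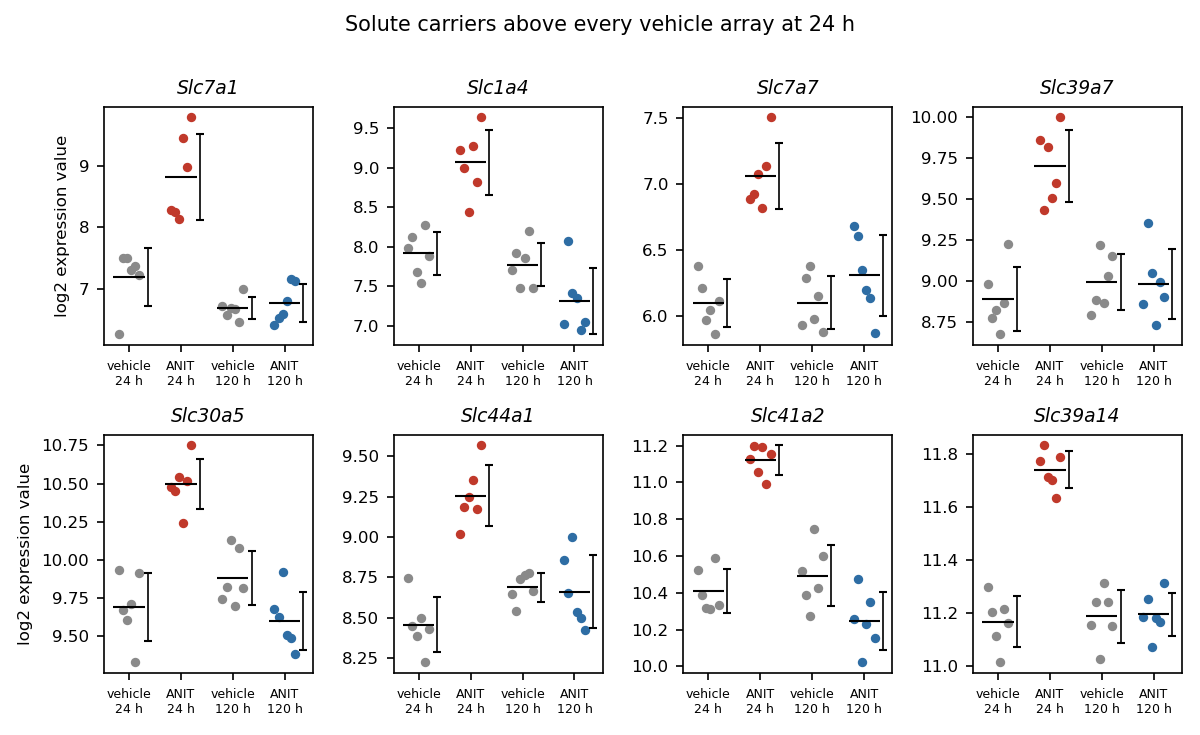
Log2 expression value of each array (points) for the 8 members whose 6 ANIT arrays at 24 h all lay above the 6 vehicle arrays, in all 4 groups of 6 rats. Lines are group means and bars their SD. Each gene has its highest mean in the 24 h ANIT group, and the vertical axes differ between genes and do not start at 0.

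Among the 18 metal carriers, 8 were called higher, 2 lower and 8 were not called, with a median change of 0.38. Slc39a7 and Slc30a5 carry zinc out of and into the compartments of the secretory pathway. Slc39a7 had lowest, median and highest levels of 8.67, 8.84 and 9.23 on the vehicle arrays and 9.43, 9.71 and 10.00 on the ANIT arrays. The groups did not overlap, and the change was 0.81 ± 0.12 (SE, adjusted p = 1.59e-05). The lowest, median and highest Slc30a5 levels were 9.33, 9.69 and 9.93 with vehicle and 10.24, 10.50 and 10.75 with ANIT. Slc30a5 was likewise higher on all 6 ANIT arrays than on any vehicle array, by 0.80 ± 0.11 (SE, adjusted p = 1.06e-05). Slc39a14 takes up zinc, manganese and iron that is not bound to transferrin, and is known to rise in inflammation. Slc39a14 levels with vehicle were 11.01, 11.18 and 11.30 (lowest, median, highest), against 11.64, 11.74 and 11.83 with ANIT. Both groups were tight and apart, with a change of 0.57 ± 0.07 (SE, adjusted p = 2.23e-06), a 1.49-fold rise, and its dimmer probe set gave 1.04. Slc41a2, a magnesium carrier, measured 10.31, 10.36 and 10.59 with vehicle and 10.99, 11.14 and 11.20 with ANIT (lowest, median, highest). Its groups did not overlap either, and the change was 0.71 ± 0.09 (SE, adjusted p = 2.35e-06). The dimmer probe set of Slc41a2, with a vehicle level of 5.87, gave a change of 1.61.

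Another 4 metal carriers were called higher with overlapping groups. Slc41a1, a magnesium carrier, changed by 0.77 ± 0.22 (SE, adjusted p = 0.0143), and Slc39a4, the zinc carrier of intestinal uptake, by 0.69 ± 0.21 (SE, adjusted p = 0.0221). The zinc carriers Slc39a1 and Slc30a9 changed by 0.41 ± 0.13 (SE, adjusted p = 0.0307) and 0.38 ± 0.10 (SE, adjusted p = 0.0104). All 4 calls ended without the 6 arrays of lowest SD, with changes of 0.54, 0.53, 0.15 and 0.27 in that order, and with the beta-actin ratio as a covariate. Those of Slc39a4 and Slc39a1 also ended with 1 array left out, for 4 arrays (replicates 4 and 5 of the vehicle and 1 and 3 of the ANIT group) and 7 arrays, with adjusted p up to 0.0719 and 0.0894.

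The metal carriers called lower were Slc30a3, known for loading zinc into synaptic vesicles, and Slc39a8, which carries manganese and zinc. On the vehicle arrays Slc30a3 measured 6.79, 7.07 and 7.32 (lowest, median, highest), and on the ANIT arrays 6.11, 6.34 and 6.52. Every ANIT array was below every vehicle array, and Slc30a3 changed by -0.72 ± 0.17 (SE, adjusted p = 0.00371). Slc39a8 levels with vehicle were 8.92, 9.51 and 9.65 (lowest, median, highest), against 8.77, 9.01 and 9.10 with ANIT. The groups of Slc39a8 overlapped through vehicle replicate 5, which stood at 8.92, and the change was -0.48 ± 0.15 (SE, adjusted p = 0.0247). This call ended when replicate 6 of the vehicle group or replicate 5 of the ANIT group was left out, at an adjusted p of up to 0.0560, with the beta-actin ratio as a covariate, at 0.0766, and with a shift to a common median, at 0.117. Slc31a1, which takes up copper, had a change of 0.22 ± 0.11 (SE, adjusted p = 0.174) and was not called. For Slc11a2, an iron carrier, the probe set used gave -0.12 and the other one 0.74, so its direction is unsettled. Of 4 genes of the metal response outside the family, Mt2A changed by 0.43 ± 0.08 (SE, adjusted p = 2.37e-04) and Hamp, the iron hormone hepcidin, by 1.08 ± 0.34 (SE, adjusted p = 0.0297). Mt1 had a change of 0.10 (adjusted p = 0.341) and Mtf1 one of -0.01 (adjusted p = 0.962), and neither was called.

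Among the 11 members counted under inorganic ions, 3 were called higher and none lower, with a median change of 0.18. That count includes Slc5a3, which carries myo-inositol. The phosphate carriers Slc20a1 and Slc20a2, also known as PiT-1 and PiT-2, both rose. Slc20a2 had lowest, median and highest levels of 7.82, 8.30 and 8.58 on the vehicle arrays and 8.53, 9.02 and 9.39 on the ANIT arrays. Only 1 vehicle array reached the lowest ANIT array, and Slc20a2 changed by 0.71 ± 0.14 (SE, adjusted p = 6.95e-04). The lowest, median and highest Slc20a1 levels were 6.83, 7.30 and 8.05 with vehicle and 7.56, 8.02 and 8.50 with ANIT. The Slc20a1 groups overlapped, with a change of 0.69 ± 0.17 (SE, adjusted p = 0.00422). Slc26a8, an anion carrier known from sperm, changed by 0.76 ± 0.26 (SE, adjusted p = 0.0415), and this call ended when any of 8 arrays was left out, with adjusted p up to 0.116. The calls of all 3 ended with the beta-actin ratio as a covariate. Without the 6 arrays of lowest SD the changes of Slc20a1 and Slc26a8 were 0.43 (adjusted p = 0.191) and 0.36 (adjusted p = 0.573), and neither was called. Slc34a1 had a change of 0.18 (adjusted p = 0.204) and was not called.

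Among the 8 sugar carriers, 1 was called higher, 1 lower and 6 were not called. Slc2a2, the glucose carrier that dominates in hepatocytes, had levels of 10.68, 10.85 and 10.95 with vehicle and 10.36, 10.82 and 11.31 with ANIT (lowest, median, highest). The groups overlapped almost fully, with a change of 0.01 ± 0.11 (SE, adjusted p = 0.948) and a 95% interval from -0.21 to 0.24. Slc2a1, the glucose carrier of most other cells, measured 7.36, 7.45 and 8.14 and 7.71, 7.96 and 8.43. Its change was 0.46 ± 0.16 (SE, adjusted p = 0.0487), and the call ended when any of 16 arrays was left out, with adjusted p up to 0.137. Without the 6 arrays of lowest SD Slc2a1 had a change of 0.34 (adjusted p = 0.387). The beta-actin covariate took it to 0.12 (adjusted p = 0.876). Slc2a5, a fructose carrier, measured 5.99, 6.33 and 6.68 with vehicle and 5.56, 5.74 and 6.01 with ANIT. A single vehicle array lay below the highest ANIT array, and Slc2a5 fell, with a change of -0.57 ± 0.12 (SE, adjusted p = 0.00154).

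The 4 carriers of fatty acids, choline and related lipids split. Slc44a1, which carries choline, was higher. Slc44a1 had lowest, median and highest levels of 8.22, 8.44 and 8.74 on the vehicle arrays and 9.02, 9.22 and 9.57 on the ANIT arrays. The groups did not overlap, and the change was 0.80 ± 0.11 (SE, adjusted p = 4.86e-06). Slc27a2 was lower. Slc27a2 levels with vehicle were 12.02, 12.09 and 12.26 (lowest, median, highest), against 11.53, 11.58 and 11.83 with ANIT. All ANIT arrays were below all vehicle arrays, with a change of -0.51 ± 0.07 (SE, adjusted p = 8.87e-06), a 1.42-fold fall in one of the brightest members. Slc27a1, a relative that takes up fatty acids in muscle and fat, changed by -0.58 ± 0.14 (SE, adjusted p = 0.00338).

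None of the 7 carriers of carboxylates and sulfate was called higher, and 3 were called lower, with a median change of -0.25 and all 7 changes below 0. Slc13a4, a sodium-coupled sulfate carrier, had the largest fall of all members. Slc13a4 had lowest, median and highest levels of 7.09, 7.70 and 8.53 on the vehicle arrays and 5.24, 5.72 and 6.86 on the ANIT arrays. The groups did not overlap, and Slc13a4 changed by -1.82 ± 0.28 (SE, adjusted p = 3.20e-05), a 3.53-fold fall. Slc26a1, the sulfate exchanger of the blood-facing hepatocyte membrane, also fell, by -0.45 ± 0.10 (SE, adjusted p = 0.00184) as the signed change. Its levels were 10.13, 10.37 and 10.61 with vehicle and 9.73, 9.88 and 10.33 with ANIT (lowest, median, highest), with overlap. Slc16a7, a carrier of pyruvate and lactate, measured 9.19, 9.53 and 9.68 and 8.66, 8.94 and 9.11. These groups did not overlap, and the change was -0.59 ± 0.11 (SE, adjusted p = 3.61e-04). Its relative Slc16a1 had a change of -0.01 (adjusted p = 0.96) and was not called.

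Among the 9 carriers of organic ions and urate, 2 were called lower and none higher. Slc17a2 had lowest, median and highest levels of 9.80, 10.13 and 10.34 on the vehicle arrays and 8.72, 9.01 and 9.30 on the ANIT arrays. Slc17a2 had the smallest p of all members at 24 h, with groups far apart and a change of -1.11 ± 0.11 (SE, adjusted p = 6.39e-08), a 2.16-fold fall. Slc22a23, an orphan relative of the organic ion carriers, measured 7.73, 8.11 and 8.45 with vehicle and 7.22, 7.41 and 7.78 with ANIT. The groups overlapped narrowly, and the change was -0.67 ± 0.14 (SE, adjusted p = 0.00133). Slc22a4, a carrier of ergothioneine, had a change of -0.53 (adjusted p = 0.0769) and was not called.

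Of the 7 vitamin carriers, 2 were called lower and none higher. The lowest, median and highest Slc19a2 levels were 10.63, 10.85 and 11.21 with vehicle and 9.79, 10.08 and 10.19 with ANIT. Slc19a2, which carries thiamine, was below every vehicle array on every ANIT array, with a change of -0.83 ± 0.10 (SE, adjusted p = 6.62e-07). Slc23a1, which takes up vitamin C, changed by -0.41 ± 0.11 (SE, adjusted p = 0.0106), and this call ended under 3 settings: the beta-actin ratio, a shift of each array to a common median, and without the 6 arrays of lowest SD, where it was -0.38 (adjusted p = 0.107). Slc46a3, a lysosomal carrier, had a change of -0.52 (adjusted p = 0.0596), and was not called. None of the 8 members counted under organelles was called at 24 h, while 1 of them, Slc35a1, had an unadjusted p under 0.05. That count leaves out carriers of organelles that were counted under other roles. Among them were Slc30a5 and Slc39a7, called higher, and Slc30a3, called lower, under metals, and the lysosomal carriers Slc46a3 and Slc49a4 under vitamins. Slc37a4 had a change of -0.17 (adjusted p = 0.35). Slc4a1ap, the adaptor, changed by 0.48 ± 0.12 (SE, adjusted p = 0.00429), and this call ended with the beta-actin ratio as a covariate (adjusted p = 0.114) and without the 6 arrays of lowest SD, at 0.30 (adjusted p = 0.187).

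Scaffolds and partners of carriers were listed as well, and 8 of 9 were measured. Nherf1, a scaffold that ties carriers to the membrane skeleton, changed by 1.56 ± 0.13 (SE, adjusted p = 5.75e-09), and Pdzk1, a scaffold of the same kind, by -0.55 ± 0.16 (SE, adjusted p = 0.0187). Bsg and Emb, which escort lactate carriers to the membrane, were not called, with changes of 0.18 and 0.25. Of the 10 carriers left out by name, 3 were called higher and 3 lower, against 12.9% and 5.31% of all genes. Below the level of 6, 13 of 130 carriers were called, 10 higher and 3 lower, against 6.59% of all 6360 genes below that level, with 4.29% higher and 2.30% lower. Slc39a10, a zinc carrier just under the threshold, changed by 1.10 ± 0.21 (SE, adjusted p = 5.58e-04), and Slc13a5, the citrate carrier, by 1.48 ± 0.25 (SE, adjusted p = 9.99e-05).

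Some markers of other cells moved with ANIT at 24 h, when 12.9% of all genes were called higher and 5.31% lower. Of 6 measured neutrophil markers, 3 were called higher, and their mean level per array ran from 4.38 to 4.99 with vehicle and from 4.86 to 5.31 with ANIT. S100a8 changed by 1.82 ± 0.38 (SE, adjusted p = 0.00132). Of 7 macrophage and Kupffer cell markers, 2 were called higher, with mean levels from 8.43 to 8.69 and from 8.61 to 8.85. Hepatocyte markers averaged 11.4 to 11.8 with vehicle and 11.4 to 11.7 with ANIT, and 1 of 8, Tat, was called higher. Of 8 stellate cell and fibroblast markers, 2 were called lower, Lrat with a change of -1.25 ± 0.17 (SE, adjusted p = 6.46e-06) and Reln, with mean levels from 6.75 to 7.12 and from 6.49 to 7.04. All 7 lymphocyte markers had changes below 0 and 2 were called lower, Cd8a by -0.56 and Cd79b by -0.32 as signed changes, with mean levels from 4.85 to 5.10 with vehicle and from 4.63 to 4.85 with ANIT. Of 6 endothelial markers Kdr (-0.35) and Stab2 (-0.498) were called lower and Lyve1 (0.54) higher, with mean levels from 8.20 to 8.82 and from 8.12 to 8.54. None of 7 cholangiocyte and 5 erythroid markers was called in limma, with 1 and 0 at an unadjusted p under 0.05. The part of these cells in the changes of the members was not tested.

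At 120 h, 6 members were called, all lower with ANIT: Slc46a1, Slc6a13, Slc49a4, Slc26a1, Slc39a8 and Slc38a3. They are 6.90% of the members, against 2.02% of all genes called, with 0.513% higher and 1.51% lower. Of the genes with a vehicle level of at least 6, 3.28% were called, with 0.523% higher and 2.75% lower. A further 18 members reached an unadjusted p under 0.05 without being called. The members' median change was -0.12, against -0.006 over all genes and -0.09 over the bright ones. It was -0.04 after quantile normalization, -0.15 with a shift to a common median and -0.02 without the 6 arrays of lowest SD. Of all genes called, 25.4% were higher as reported and 73.2% without those 6 arrays. In 4 members every ANIT array was below every vehicle array, 4.60% of members against 2.14% of all genes, and the share among the bright genes was not computed.

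**Figure D4:**
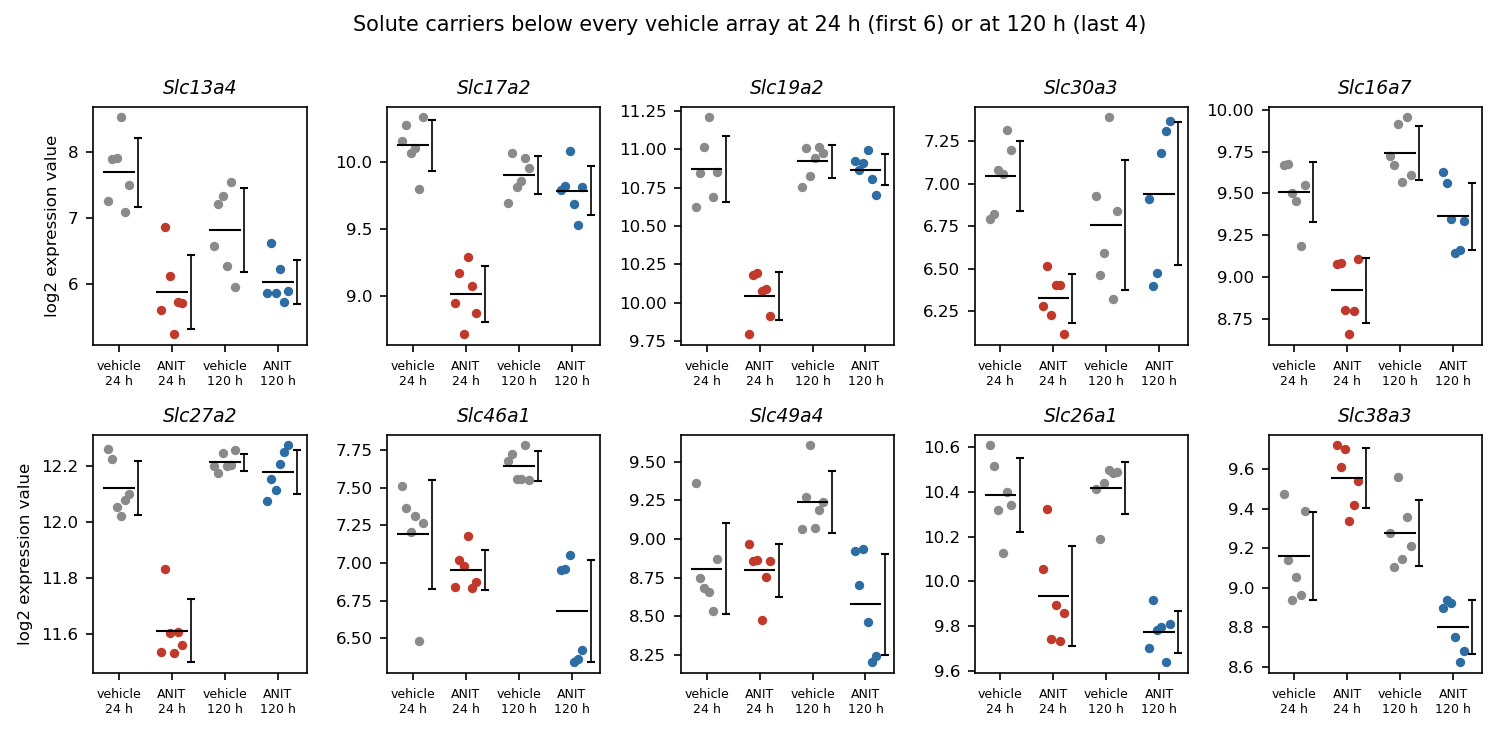
Log2 expression value of each array (points) in all 4 groups of 6 rats, for the 6 members below every vehicle array at 24 h (Slc13a4 to Slc27a2) and the 4 below every vehicle array at 120 h (Slc46a1 to Slc38a3). Lines are group means and bars their SD. Slc17a2, Slc19a2 and Slc27a2 are low in the 24 h ANIT group alone, while Slc46a1 splits into 3 higher and 3 lower arrays at 120 h, and the vertical axes differ and do not start at 0.

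Slc46a1, the proton-coupled folate carrier, fell furthest. Slc46a1 had lowest, median and highest levels of 7.55, 7.62 and 7.78 on the vehicle arrays and 6.34, 6.69 and 7.05 on the ANIT arrays. The groups did not overlap, and the change was -0.96 ± 0.15 (SE, adjusted p = 5.71e-04). Within the ANIT group, replicates 4, 5 and 6 measured 6.34, 6.36 and 6.42 and replicates 1, 2 and 3 measured 6.95, 6.96 and 7.05, so the arrays formed 2 sets, the lower one being the arrays of low SD. Without the 6 arrays of lowest SD the change was -0.65 ± 0.10 (SE, adjusted p = 0.00273). Slc26a1, the sulfate exchanger, fell again. The lowest, median and highest Slc26a1 levels were 10.19, 10.46 and 10.50 with vehicle and 9.64, 9.79 and 9.92 with ANIT. No array overlapped, and the change was -0.64 ± 0.10 (SE, adjusted p = 6.44e-04), and -0.62 (adjusted p = 0.0139) without those 6 arrays. These were the only 2 of the 6 calls that held under every setting and with every array left out.

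Slc38a3, the glutamine carrier that had risen at 24 h, was lower at 120 h. Slc38a3 levels with vehicle were 9.10, 9.24 and 9.56 (lowest, median, highest), against 8.62, 8.82 and 8.94 with ANIT. The groups did not overlap, with a change of -0.47 ± 0.11 (SE, adjusted p = 0.0154). Slc49a4, a lysosomal carrier linked to vitamin B6, measured 9.06, 9.21 and 9.60 with vehicle and 8.20, 8.58 and 8.94 with ANIT. It was also without overlap, with a change of -0.66 ± 0.14 (SE, adjusted p = 0.0128). Slc6a13, a carrier of GABA, betaine and taurine, changed by -0.78 ± 0.18 (SE, adjusted p = 0.0185), and Slc39a8 by -0.59 ± 0.15 (SE, adjusted p = 0.0396), both with overlapping groups. Without the 6 arrays of lowest SD none of these 4 was called, with changes of -0.35 for Slc38a3, -0.39 for Slc49a4, -0.47 for Slc6a13 and -0.21 for Slc39a8 and adjusted p between 0.146 and 0.348. ANIT replicates 4, 5 and 6 held the 3 lowest levels of their group in all 4 of these genes. The calls of Slc6a13 and Slc39a8 also ended when any of 4 and any of 9 arrays of the 120 h groups was left out, at adjusted p up to 0.0589 and 0.111. A shift to a common median ended those of Slc38a3 (adjusted p = 0.0553) and Slc39a8 (0.0904), and the beta-actin ratio that of Slc39a8 (0.0880).

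None of the 20 members that had risen at 24 h was called higher at 120 h. Few genes were at that time: 0.513% of all genes and 0.523% of those with a vehicle level of at least 6. Slc7a1 measured 6.47, 6.69 and 7.003 with vehicle and 6.42, 6.71 and 7.16 with ANIT at 120 h. The groups overlapped fully, with a change of 0.08 ± 0.24 (SE, adjusted p = 0.911). Slc39a14 had a change of 0.01 ± 0.07 (SE, adjusted p = 0.979) and Slc1a4 one of -0.46 ± 0.19 (SE, adjusted p = 0.258), and neither was called. Slc16a1, the lactate carrier, had a change of -0.35 ± 0.10 (SE, adjusted p = 0.0631) and Slc16a7 one of -0.38 ± 0.11 (SE, adjusted p = 0.0751), just outside the threshold. Slc13a4 had levels of 5.96, 6.90 and 7.54 with vehicle and 5.72, 5.88 and 6.62 with ANIT. Those groups overlapped, and the change of -0.78 ± 0.28 (SE, adjusted p = 0.166) was not called. Slc2a2 had a change of -0.04 ± 0.11 (SE, adjusted p = 0.894).

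Outside the members, none of the 9 amino acid response genes was called at 120 h, with changes between -0.18 and 0.13. Hamp was still higher, by 1.501 ± 0.34 (SE, adjusted p = 0.019), and Pdzk1 was still lower, by -0.73 ± 0.16 (SE, adjusted p = 0.0163) as the signed change. Of the carriers left out by name, 1 was higher and 4 were lower, among them Slc22a8, an organic anion carrier, by -1.57 ± 0.25 (SE, adjusted p = 7.98e-04), and Slc3a2 by -0.63 ± 0.12 (SE, adjusted p = 0.00478). None of the 130 carriers below the level was called at 120 h in limma, with 4 at an unadjusted p under 0.05, against 0.629% of all genes below that level. Of 7 measured cholangiocyte markers 2 were called higher, Krt19 by 0.73 ± 0.12 (SE, adjusted p = 0.00147) and Cftr. Their mean level per array ran from 4.80 to 4.94 with vehicle and from 5.07 to 5.42 with ANIT. All 7 macrophage and Kupffer cell markers had changes above 0 and 1 was called higher, Cd163 by 0.43 ± 0.10 (SE, adjusted p = 0.0239), with mean levels from 8.48 to 8.86 and from 8.71 to 9.16. None of the 8 stellate cell and fibroblast markers was called in limma, with 4 at an unadjusted p under 0.05 and mean levels from 6.69 to 7.18 with vehicle and from 7.01 to 7.45 with ANIT. Of all genes 0.513% were called higher and 1.51% lower at 120 h. The part of these cells in the members' falls was not tested.

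The effect of ANIT differed between the times in 28 members, 32.2% of them, against 14.3% of all genes and 22.8% of those with a vehicle level of at least 6. The difference is the change at 120 h minus that at 24 h. It was below 0 in 21 members, where the 24 h change was the higher one, and above 0 in 7. Of all genes it was called below 0 in 11% and above 0 in 3.33%, and of those with a vehicle level of at least 6 in 18.6% and 4.14%. Of the 20 rises at 24 h, 16 were among the 28, and of the 13 falls 6. The 24 h change is itself a term of the difference, so this overlap is partly built in. The matching share among all genes called at 24 h was not computed. The largest differences were those of Slc1a4, at -1.61 ± 0.27 (SE, adjusted p = 2.39e-04), and Slc7a1, at -1.53 ± 0.34 (SE, adjusted p = 0.00357). Among metal carriers Slc30a5 differed by -1.08 ± 0.16 (SE, adjusted p = 5.79e-05) and Slc41a2 by -0.95 ± 0.13 (SE, adjusted p = 1.63e-05). In the other direction stood Slc17a2, at 0.99 ± 0.15 (SE, adjusted p = 1.14e-04), Slc19a2, at 0.78 ± 0.14 (SE, adjusted p = 3.67e-04), and Slc27a2, at 0.48 ± 0.10 (SE, adjusted p = 0.00203), whose falls were found at 24 h and not called at 120 h.

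**Figure D5:**
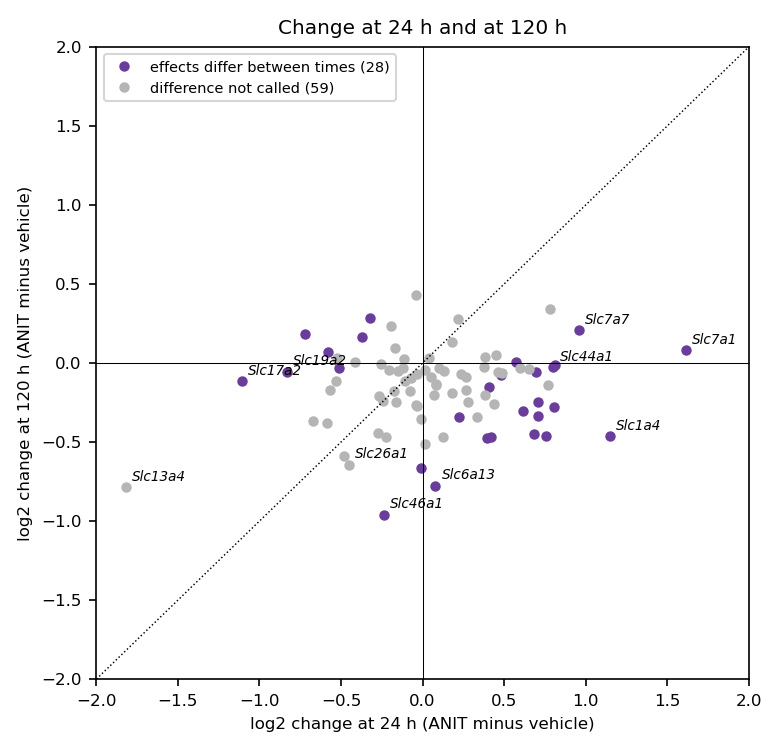
Log2 change at 120 h (vertical) against that at 24 h (horizontal) for the 87 members, ANIT minus vehicle at each time. Purple points are the 28 members whose changes differed between the times, and the dotted line marks equal changes. Slc7a1 and Slc1a4 lie farthest to the right, well below the dotted line, and Slc26a1 lies near the dotted line.

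Slc38a3 was the member called in opposite directions, higher at 24 h and lower at 120 h, and its difference was -0.87 ± 0.15 (SE, adjusted p = 3.05e-04). Without the 6 arrays of lowest SD neither of its calls held in limma, with changes of 0.22 (adjusted p = 0.273) at 24 h and -0.35 (adjusted p = 0.146) at 120 h. Slc26a1 and Slc39a8 were lower at both times, and their differences of -0.19 ± 0.14 (SE, adjusted p = 0.355) and -0.10 ± 0.21 (SE, adjusted p = 0.76) were not called. For Slc13a4 the difference was 1.03 ± 0.39 (SE, adjusted p = 0.0774) and was not called, while its 95% interval, not adjusted for the number of genes, ran from 0.22 to 1.84. It was called under 4 of 33 alternatives, with an adjusted p of 0.0267 at the lowest. In Slc31a1, Slc35a1, which carries CMP-sialic acid into the Golgi, and Slc5a3, a carrier of myo-inositol, the effects differed although neither time alone was called. The calls of Slc35a1 and Slc5a3 ended when any of 14 and any of 11 arrays was left out, at adjusted p up to 0.0730 and 0.0615. That of Slc31a1 ended with the spiked control level, the array SD or the beta-actin ratio as a covariate, and without the 6 arrays of lowest SD, where the difference was -0.34 (adjusted p = 0.357). Of the 28 differences, 9 held under every setting: Slc17a2, Slc19a2, Slc1a4, Slc30a5, Slc38a3, Slc39a14, Slc41a2, Slc44a1 and Slc7a1. Without the 6 arrays of lowest SD 15 of the 28 ended, with adjusted p between 0.0878 and 0.831: Slc20a1, Slc26a8, Slc30a3, Slc31a1, Slc35a1, Slc38a10, Slc39a1, Slc39a4, Slc39a7, Slc46a1, Slc49a4, Slc4a1ap, Slc5a3, Slc6a13 and Slc7a7. In all 14 members were called there, and without vehicle 24 h replicate 1 alone 40 were called. Over all genes the 1925 calls became 855 and 3149 in these fits.

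The 2 vehicle groups were compared to see what the controls did between the times. None of the 87 members was called in limma, with 19 at an unadjusted p under 0.05, and 1 of all genes was, 0.00744% of them, or 0.0141% of those with a vehicle level of at least 6. The largest members' differences, 120 h minus 24 h, were those of Slc13a4, at -0.88 ± 0.28 (SE, adjusted p = 0.257), and Slc17a3, a urate carrier, at -0.69 ± 0.18 (SE, adjusted p = 0.166). Slc13a4 thus had a vehicle median of 7.70 at 24 h and 6.90 at 120 h. The median difference of the members was 0.10, against 0.04 over all genes and 0.13 over those at a level of at least 6. Without vehicle 24 h replicate 1, 5 members were called, and after quantile normalization 2 were.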

How the data were processed

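Liver RNA, amplified with a NuGEN Ovation kit per the labels' protocols, was measured on 24 one-colour arrays of 31139 probe sets. The deposited table holds log2 expression values between 2.34 and 13.5. The submitters' processing notes name RMA and Partek, with no version or setting given. The values were used as deposited, without further normalization. Array medians ran from 5.34 to 5.54.

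Probe sets were named from the platform annotation, with 19069 naming 1 gene, 572 several and 11498 none listed. Names were checked against a current rat gene table of the GRCr8 assembly, used for names only, with 0 probe sets renamed and 80 left under the annotation's symbol. Each of 13439 genes was represented by its single-gene probe set of highest mean over all arrays, and 63 of the 87 members had 1 probe set. Groups came from the sample descriptions, and replicate numbers, given in accession order, pair no rats. A cell-means model was fitted with limma 3.58.1 in R 4.3.3 (lmFit and eBayes), with Benjamini-Hochberg adjustment over all genes, and was tested on simulated data. Plots were made in matplotlib 3.10.9 under Python 3.11.15.

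The members, the role lists, the marker lists and the tests were chosen with earlier results of these data known. Named members followed a written rule: the 10 largest rises and falls called at each time, up to 5 called per direction for the other contrasts, the 3 smallest p at 24 h and the 2 smallest at 120 h in each role, the extremes of vehicle level, the 4 genes on each side of the threshold, and a panel of 20 widely known carriers. Slc38a10, Slc43a1, Slc43a2, Slc39a1, Slc39a4, Slc30a9 and Slc11a2 lie outside it and were named after their values were seen. Alternatives were another scaling, covariates, probe set rule, filter, variance model, level threshold and each array left out. Promoters came from RefSeq (GRCr8).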

Additional observations from a re-analysis of the deposited data

Results flagged for a closer look

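In 28 of the 87 members, 32.2%, the ANIT effect differed between 24 h and 120 h by a test of the difference itself (limma, Benjamini-Hochberg over all genes), against 22.8% of genes with a vehicle level of at least 6. The values are the change at 120 h minus that at 24 h, on the log2 scale. The amino acid carriers differed by -1.61 for Slc1a4, -1.53 for Slc7a1, -0.92 for Slc38a10, -0.87 for Slc38a3, -0.85 for Slc6a13, -0.75 for Slc7a7 and 0.54 for Slc43a2. The metal carriers differed by -1.13 for Slc39a4, -1.08 for Slc30a5, -0.95 for Slc41a2, -0.83 for Slc39a7, -0.57 for Slc39a14, -0.57 for Slc31a1, -0.56 for Slc39a1 and 0.90 for Slc30a3. The members counted under ions differed by -1.22 for Slc26a8, -1.04 for Slc20a2, -0.75 for Slc20a1 and 0.60 for Slc5a3, which carries myo-inositol. The vitamin carriers differed by 0.78 for Slc19a2, -0.72 for Slc46a1 and -0.65 for Slc49a4. Among lipid carriers the differences were -0.83 for Slc44a1, 0.65 for Slc27a1 and 0.48 for Slc27a2. The remaining differences were 0.99 for Slc17a2, -0.89 for Slc35a1 and -0.55 for Slc4a1ap. Leaving out a single array ended 8 of these calls, those of Slc20a1, Slc26a8, Slc35a1, Slc39a1, Slc43a2, Slc49a4, Slc4a1ap and Slc5a3, at adjusted p up to 0.0841.

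A single array stood far from the other 5 of its group in 9 of 212 groups of 6 arrays examined, and chance alone marks about 1 in 20. At 24 h the vehicle array of replicate 1 was lowest for Slc7a1, at 6.27 against 7.24 for the next, and for Slc5a3, at 5.89 against 6.396, and was highest for Slc2a1, at 8.15 against 7.57. The vehicle array of replicate 5 was lowest for Slc46a1, at 6.48 against 7.21, and for Slc39a8, at 8.92 against 9.46. The vehicle array of replicate 6 was lowest for Slc52a2, at 5.70 against 6.03. The ANIT array of replicate 2 at 24 h was highest for Slc27a2, at 11.83 against 11.61. At 120 h, vehicle replicate 2 was lowest for Slc26a1, at 10.19 against 10.41, and ANIT replicate 2 was highest for Slc38a4, at 11.44 against 11.33.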

How the results depend on the processing

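Against 33 members called at 24 h, the beta-actin ratio as a covariate gave 18 and single arrays left out gave 27 to 41. Over all genes the 2452 calls became 908 and 1830 to 3535. The 20 rises became 13 with the spiked control level as a covariate, 8 with the beta-actin ratio and 9 without the 6 arrays of lowest SD, with 14 to 27 when 1 array was left out. The 13 falls became 23 with the control level, 24 with the array SD and 22 after quantile normalization, with 12 to 16 when 1 array was left out. At 120 h the 6 calls became 10 with the control level, 10 with the array SD and 2 without the 6 arrays, with 4 to 7 when 1 array was left out. Over all genes the 272 calls at 120 h became 674 with the control level, 652 with the array SD and 194 without the 6 arrays. The 28 differences between times became 10 with the beta-actin ratio and 14 without the 6 arrays, with 21 to 40 when 1 array was left out. Of these, those above 0 (7) became 3 with the beta-actin ratio and 15 after quantile normalization, with 5 to 9. Those below 0 (21) became 11 with the control level, 11 with the array SD, 7 with the beta-actin ratio and 8 without the 6 arrays, with 15 to 32, the last without vehicle 24 h replicate 1. Between the vehicle groups the 0 calls became 2 after quantile normalization and 0 to 5 when 1 array was left out. The cause of these shifts was not tested. The mean of all probe sets turned Slc11a2 to 0.31 (adjusted p = 0.016) at 24 h and to -0.48 (adjusted p = 0.0133) in the difference, since its probe sets disagree. The stricter level of 7 over vehicle arrays kept 60 members, of which 26 were called at 24 h, and without a threshold 46 of 217 were. No paired analysis was possible because the labels give no replicate number that groups share. Array brightness gives no counts, and 6 arrays a group limit what small changes can be called.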

Other observations

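The carriers below the vehicle level of 6 held further zinc carriers that were higher at 24 h. Besides Slc39a10, Slc30a7, which loads zinc into the Golgi, changed by 1.17 ± 0.23 (SE, adjusted p = 6.26e-04), and by -0.34 at 120 h without a call. Slc13a5, which takes citrate into hepatocytes, had a change of 1.48 at 24 h (adjusted p = 1.00e-04) and of -0.23 at 120 h, also not called there. Slc12a4, a potassium and chloride carrier, changed by 0.80 (adjusted p = 0.00608) at 24 h, and Slc12a3, its relative known from kidney, by -0.59 (adjusted p = 0.00875). Slc30a7, Slc12a4 and Slc12a3 were named after their values were seen. Of the 130 dim carriers 7.69% were called higher and 2.31% lower, against 4.29% and 2.30% of the 6360 genes with a vehicle level below 6.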
